A study of Mus musculus with 6 samples.

Results

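Prkg1, Itsn1, Plxdc2, Pcdh7, Pdzk1ip1, Csgalnact1, Hacd4 and Samd12 were the 8 genes examined, out of 32285 genes counted in mouse marrow stem and progenitor cells. They were chosen by their symbols because they led cluster 0 of the deposited cell table over all other cells and were absent from the stem cell marker lists in use. Their levels by cluster, class and cell cycle phase are therefore given as descriptions without a test. The difference between leukemic and control mice did not enter the choice and was tested by library.

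The study asked how healthy hematopoietic stem and progenitor cells (HSPCs) change when acute myeloid leukemia (AML) grows in the same marrow. Female C57BL/6J hosts carrying CD45.1, which were not conditioned and were 8 to 12 weeks old, received either PBS or 1000000 C1498 cells, a murine AML line that carries CD45.2. At day 21 host CD45.1+ Lin- cKit+ Sca1+ (LSK) cells were sorted from the marrow and sequenced on the 10x Chromium platform, with 3 PBS and 3 AML libraries. The model rests on 1 injected cell line in hosts that kept their own hematopoiesis, and the labels do not say whether each library came from a separate animal, so p-values measure only the spread between these libraries.

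The cell table held 16822 cells, of which 6838, 934 and 4398 came from PBS replicates 1, 2 and 3. AML replicates 1 and 3 had 693 and 3959 cells, and AML replicate 2 had 0, so that each comparison set 3 PBS libraries against 2 AML libraries. AML replicate 1 stood apart from the other libraries, with a median of 2393 unique molecular identifiers (UMIs) per cell against 4015 to 9586 elsewhere. In that library 14.7% of cells were scored G1 and 52.4% G2M, against 49.0 to 58.2% and 18.3 to 24.1% in the other 4. Between 0 and 12 cell barcodes in the table were shared by any pair of libraries. Cluster 0 held 6367 cells, or 36.8 to 41.0% of each PBS library and 32.1 and 34.9% of the AML libraries. The summed level of 15 stem cell markers averaged 1138 CPM (UMIs of a gene or list per 1000000 UMIs of the sum) in cluster 0 and 105 to 815 CPM in the other clusters. The summed level of 9 megakaryocyte and platelet markers was also highest in cluster 0, at 400 CPM against 11 to 120 CPM.

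Hematopoietic stem cells (HSCs) sit at the top of the LSK gate and are mostly quiescent, while the multipotent progenitors MPP-2, MPP-3 and MPP-4 lean towards megakaryocyte and erythroid, myeloid and lymphoid output. Mecom and Hlf encode transcription factors that HSCs need for self-renewal. The 8 genes encode proteins of unlike kinds that are not members of a single pathway. Prkg1 encodes a cGMP-dependent protein kinase that acts below nitric oxide and natriuretic peptides, and Itsn1 encodes intersectin, a scaffold of clathrin-mediated endocytosis that also activates the small GTPase Cdc42. Plxdc2 and Pcdh7 encode single-pass surface proteins, a plexin domain receptor and a protocadherin, and Pdzk1ip1 encodes MAP17, a small membrane protein whose gene lies beside Stil and Tal1. Csgalnact1 encodes a transferase that starts chondroitin sulfate chains, and Hacd4 encodes a dehydratase of very long chain fatty acid elongation. Samd12 encodes a protein with a sterile alpha motif domain.

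On GRCm38 the 8 genes differed widely in span. Prkg1 (ENSMUSG00000052920) lay on the minus strand of chr19:30564489-31765033, a span of 1201 kb that was 99.1% intronic and longer than that of 99.85% of 21625 coding genes. Samd12 (ENSMUSG00000058656, chr15:53453810-53902537, minus strand), Pcdh7 (ENSMUSG00000029108, chr5:57717967-58133230, plus strand) and Plxdc2 (ENSMUSG00000026748, chr2:16356304-16755839, plus strand) spanned 448.7, 415.3 and 399.5 kb. Csgalnact1 (ENSMUSG00000036356, chr8:68356781-68735146, minus strand) spanned 378.4 kb and Itsn1 (ENSMUSG00000022957, chr16:91729281-91920597, plus strand) 191.3 kb. Hacd4 (ENSMUSG00000028497, chr4:88396144-88438928, minus strand) spanned 42.78 kb. Pdzk1ip1 (ENSMUSG00000028716, chr4:115088708-115093899, plus strand) spanned 5.192 kb, of which 65.8% was intronic. Annotated genes on the opposite strand overlapped Prkg1, Pcdh7, Csgalnact1, Hacd4, Samd12 and Itsn1 (for Itsn1 Atp5o, which is not among the genes matched in the counts), and reads of such a gene cannot be told apart from those of its partner where strand was not used in counting.

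The promoters of Prkg1 and Pdzk1ip1 are shown because they belong to the longest and the shortest of the 8 genes and held matches to letters that stem cell factors bind. They run 5′ to 3′ from 250 bases before to 50 bases after the annotated start, from RefSeq on GRCm38.p6. Capitals mark matches on either strand. The letters searched for factors of the GATA family were AGATAA. Those for the ETS family were AGGAAG, those for the RUNX family were TGTGGT, and the E-box was searched as CAGCTG. These motifs share no position in either window. The Prkg1 window is chr19:31764984-31765283 on the minus strand and the Pdzk1ip1 window is chr4:115088458-115088757 on the plus strand.
Prkg1: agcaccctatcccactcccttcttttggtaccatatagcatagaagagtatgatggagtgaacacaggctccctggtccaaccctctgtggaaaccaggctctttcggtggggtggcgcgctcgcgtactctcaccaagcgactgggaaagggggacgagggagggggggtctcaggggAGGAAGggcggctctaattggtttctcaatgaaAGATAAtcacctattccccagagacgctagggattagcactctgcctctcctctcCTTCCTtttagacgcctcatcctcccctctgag
Pdzk1ip1: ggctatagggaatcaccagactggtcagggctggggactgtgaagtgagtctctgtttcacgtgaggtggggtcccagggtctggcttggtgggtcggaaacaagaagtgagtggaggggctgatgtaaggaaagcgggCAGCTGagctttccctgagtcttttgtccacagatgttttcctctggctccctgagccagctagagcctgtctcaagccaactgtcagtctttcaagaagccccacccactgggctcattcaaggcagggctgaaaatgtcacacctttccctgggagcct
In the Prkg1 window the GATA letters began at base -38 from the start and the ETS letters at -71 and 17, and in the Pdzk1ip1 window the E-box began at -111. Among 32851 promoter windows, 11.2% held the GATA letters, 35.4% the ETS letters, 16.8% the RUNX letters and 16.3% the E-box. The windows of Hacd4, Pcdh7 and Itsn1 held 0 matches, and a second Prkg1 window, chr19:31664321-31664620 on the minus strand, held ETS letters at 31. A match is a description of these letters, with no measurement of binding behind it. The pair of windows also differed in CpG dinucleotides, with 10 in the Prkg1 window and 3 in the Pdzk1ip1 window against a median of 7 over all windows.

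Across 6172 genes with at least 20 CPM in cluster 0, ranked by the log2 ratio of cluster 0 to all other cells, the 8 genes took ranks 5 to 17. The ratios ran from 2.20 for Pdzk1ip1, through 2.12 for Plxdc2, 2.11 for Csgalnact1 and Prkg1, 2.10 for Pcdh7, 1.90 for Samd12 and 1.88 for Itsn1, to 1.84 for Hacd4. These values chose the genes and carry no test. Just outside, at rank 18, stood Dach1 with 1.84, a transcription factor gene. All 8 genes were higher in cluster 0 than in the other cells in each of the 5 libraries, as were 2796 of the 6172 genes ranked.

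Prkg1 had 235, 226 and 232 CPM in cluster 0 of the PBS libraries and 129 and 225 CPM in AML replicates 1 and 3, against 34.1 to 66.3 CPM in the other cells. The lowest cluster 0 library thus stood above the highest library of the other cells, and the low one was AML replicate 1. Itsn1 had 54.8, 50.8, 51.0, 25 and 51.2 CPM in cluster 0 in the same order of libraries, against 5.53 to 15.6 CPM in the other cells. AML replicate 1 was again the low library and the remaining 4 lay between 50.8 and 54.8 CPM.

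Among the surface and membrane proteins, Plxdc2 averaged 59.8 ± 10.8 CPM (SD, n = 5 libraries) in cluster 0 and 13 ± 4.4 CPM in the other cells. Pcdh7 averaged 58.4 ± 10.1 CPM and 12.9 ± 4.5 CPM. Pdzk1ip1 had 193, 190 and 177 CPM in cluster 0 of the PBS libraries and 32.4 and 146 CPM in AML replicates 1 and 3. The cluster 0 value of AML replicate 1 lay below the 39.9 to 50.2 CPM of PBS cells outside the cluster, while within that library the other cells had 2.37 CPM. Of the 2 enzyme genes, Csgalnact1 averaged 127 ± 32.3 CPM in cluster 0 and 28.6 ± 13.3 CPM outside it. Hacd4 had 85.5, 91.9 and 77.8 CPM in cluster 0 of PBS replicates 1 to 3, and 22.1 and 58.6 CPM in that of AML replicates 1 and 3, with both AML values below the 3 PBS values. Samd12 averaged 98.3 ± 22.7 CPM and 25.7 ± 11.7 CPM.

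**Figure D1:**
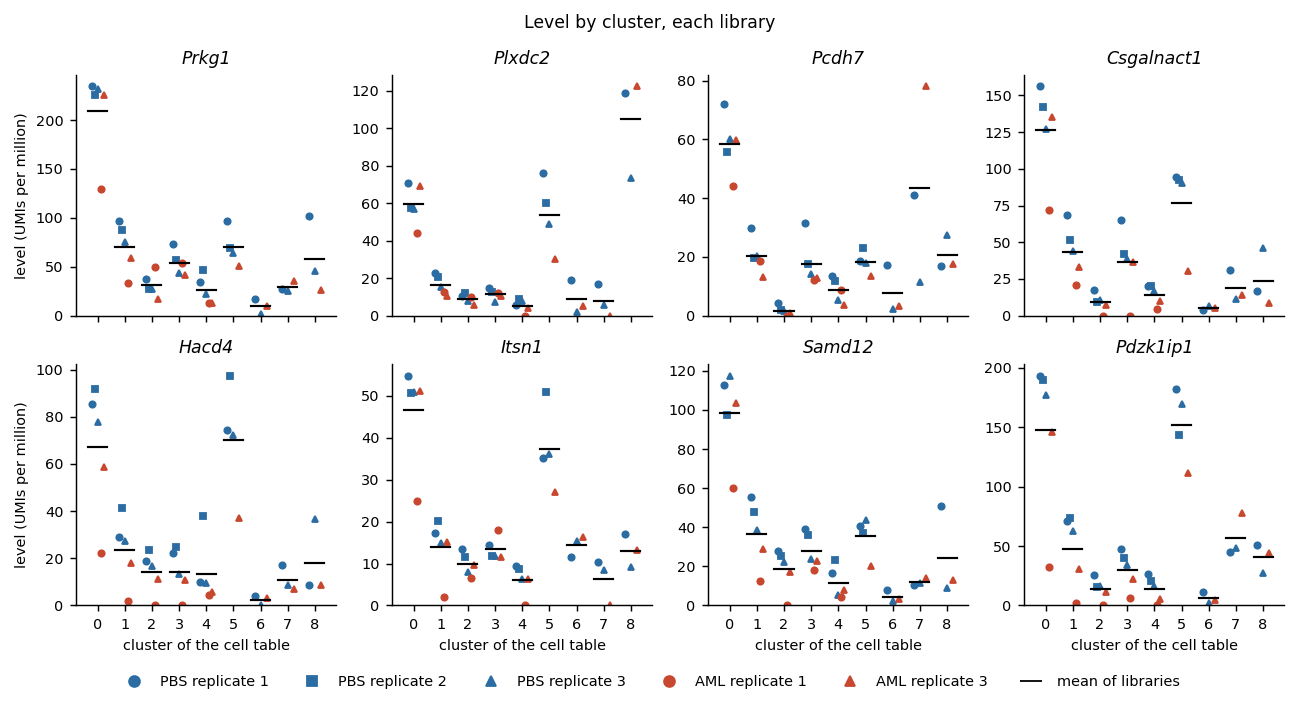
Level of each of the 8 genes in each of the 9 clusters, in CPM of summed UMIs, with points for libraries and lines for means. Cluster 0 is the highest cluster for Prkg1, Samd12, Pcdh7, Csgalnact1 and Itsn1, cluster 8 for Plxdc2, and for Hacd4 and Pdzk1ip1 the mean of cluster 5 (4 libraries) lies close to that of cluster 0 (5 libraries).

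The order of the clusters differed from gene to gene. Prkg1 and Samd12 were highest in cluster 0, and no cluster 0 library overlapped those of the next cluster, cluster 1, where the means were 70.3 and 36.7 CPM. Pcdh7, Csgalnact1 and Itsn1 were also highest in cluster 0, but their libraries overlapped those of the next cluster. That next cluster was cluster 7 for Pcdh7, at 43.6 ± 33.5 CPM, and this cluster held the most erythroid marker RNA, a summed 19107 CPM. For Csgalnact1 and Itsn1 it was cluster 5, at 77.0 ± 31.1 and 37.3 ± 10.0 CPM over 4 libraries, since AML replicate 1 had too few cells there. Over those 4 libraries cluster 0 averaged 140.1 ± 12.4 and 52.0 ± 1.92 CPM, and Csgalnact1 no longer overlapped.

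Plxdc2 was highest in cluster 8, at 105 ± 27.5 CPM (n = 3 libraries with enough cells), and these libraries did not overlap those of cluster 0. Cluster 8 held the most T and NK cell marker RNA, a summed 2660 CPM. Hacd4 averaged 70.2 ± 24.8 CPM in cluster 5 (n = 4) and 67.2 ± 28.1 CPM in cluster 0 (n = 5), and Pdzk1ip1 152 ± 31.2 and 148 ± 67.2 CPM. Without AML replicate 1, the library missing from cluster 5, the cluster 0 means were 78.4 ± 14.4 and 177 ± 21.5 CPM, above those of cluster 5 with overlapping libraries. Cluster 6, which held the most B cell marker RNA, had the lowest mean of Prkg1 (9.8 CPM), Csgalnact1 (5.1 CPM), Hacd4 (2.4 CPM), Samd12 (4.4 CPM) and Pdzk1ip1 (6.2 CPM). The lowest mean of Pcdh7 was in cluster 2, and of Plxdc2 and Itsn1 in cluster 4.

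The share of cells with a UMI was compared after each cell was thinned to 2000 UMIs, since cluster 0 was shallower than the B cell marker cluster (medians of 3740 and 8667 UMIs per cell). Prkg1 was seen in 31.6 ± 6.57% of thinned cluster 0 cells, 13.2 ± 4.52% of cluster 1 cells and 1.78 ± 1.82% of cluster 6 cells, and without thinning in 52.5%, 30.6% and 4.89%. Pdzk1ip1 was seen in 24.7% of thinned cluster 0 cells, Csgalnact1 in 21.4%, Samd12 in 17.8% and Hacd4 in 13%, against 0 to 1.74% in cluster 6. Plxdc2, Itsn1 and Pcdh7 were seen in 11.1%, 10.2% and 9.94% of cluster 0 cells. Their shares in cluster 6 were 0.606%, 4.57% and 1.21%, so Itsn1 had the highest share of the 8 genes in the cluster taken as background.

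A thinned cluster 0 cell held UMIs of 1.40 ± 0.379 of the 8 genes on average, against 0.370 ± 0.150 in the other cells. No gene of the 8 was seen in 31.9 ± 12.1% of cluster 0 cells, and 3 or more were seen in 20.5 ± 7.61%. Cluster 0 of AML replicate 1 had the lowest mean, 0.736 genes per cell. Within cluster 0 the 28 pairs of genes had weak correlations by cell, with a median r over libraries between 0.0179 and 0.150, over counts that share depth.

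The class labels, which the authors set from module scores, gave the same order at its top for all 8 genes. Means over 5 libraries were highest in the HSC class, and the libraries of the HSC class overlapped those of the next class for Pcdh7 alone. Prkg1 averaged 293 ± 29.5 CPM in HSCs and 88.9 ± 17.8 CPM in MPP-2 cells, the next class, with 69.6 CPM in MPP-4 cells and 48.6 CPM in MPP-3 cells. Itsn1 averaged 86.1 ± 16.1 CPM in HSCs and 12.8 to 19.3 CPM in the 3 MPP classes. Plxdc2 averaged 103 ± 20.8 CPM and 14.8 to 21.3 CPM, and Pdzk1ip1 233 ± 87.2 CPM and 26.9 to 53.0 CPM.

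Pcdh7 differed from the other members in leaning towards MPP-2 cells, with 56.8 ± 15.3 CPM in HSCs and 36.7 ± 11 CPM in MPP-2 cells, against 13.2 ± 5.8 CPM in MPP-4 cells and 11.3 ± 11 CPM in MPP-3 cells. Inside cluster 0 its MPP-2 cells had 66.3 ± 13.9 CPM. For Csgalnact1 the HSC mean was 178 ± 16.8 CPM and the next, in MPP-2, 57.4 ± 21.0 CPM. Hacd4 had 100.1 ± 31.3 CPM in HSCs and 26.3 ± 13 CPM in MPP-2, and Samd12 141 ± 28.7 CPM in HSCs and 41.7 ± 7.4 CPM in MPP-4.

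HSC class cells that fell outside cluster 0 had lower means of all 8 genes than those inside it, over the 4 libraries with enough cells. Prkg1 averaged 339 CPM inside and 158 CPM outside, Itsn1 97.2 and 35.9 CPM, Pdzk1ip1 328 and 138 CPM, and Pcdh7 74.0 and 36.0 CPM. Plxdc2, Csgalnact1, Hacd4 and Samd12 averaged 117, 207, 134 and 182 CPM inside and 56.8, 91.5, 62.6 and 82.1 CPM outside. Mecom went the same way, with 482 and 233 CPM.

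**Figure D2:**
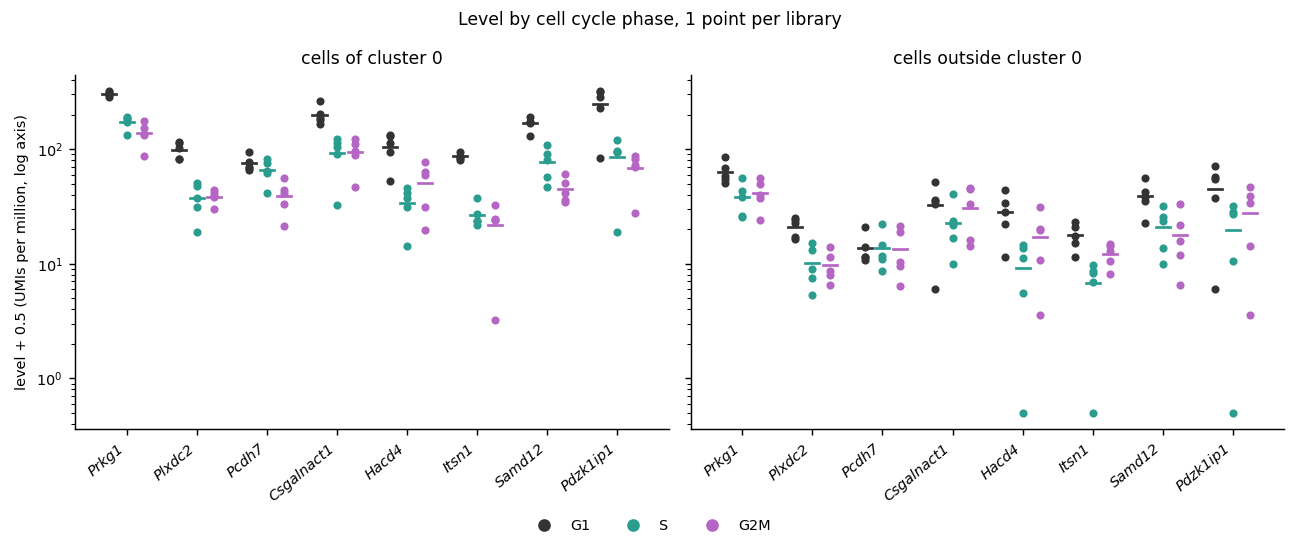
Level of each of the 8 genes by scored cell cycle phase (G1, S, G2M), in cluster 0 (left) and outside it (right), in CPM of summed UMIs plus 0.5 on a log axis, with a point for each of the 5 libraries and lines for means. In cluster 0 the G1 mean is the highest for every gene, and the G1 libraries overlap those of the next phase for Pcdh7, Hacd4 and Pdzk1ip1.

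Within cluster 0 the mean of every one of the 8 genes was highest in cells scored G1. Itsn1 had 94.8, 84.8 and 79.5 CPM in G1 cells of the PBS libraries and 84.0 and 87.2 CPM in AML replicates 1 and 3, the fourth value resting on 8 UMIs. In S and G2M cells it averaged 26.1 ± 6.2 and 21.2 ± 10.9 CPM, so the 5 G1 libraries stood clear of both phases and the PBS and AML libraries overlapped within G1. Prkg1 averaged 304 ± 14.6 CPM in G1, 173 ± 23.5 in S and 137 ± 32.5 in G2M, and Samd12 167 ± 21.7, 76.1 ± 25 and 44.1 ± 11 CPM.

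Csgalnact1 averaged 199 ± 38.0 CPM in G1 and 92.0 and 93.0 CPM in S and G2M, and Plxdc2 98.7 ± 16.9, 36.8 and 37.8 CPM. Pdzk1ip1 averaged 246 ± 98.0, 84.5 ± 38.7 and 67.6 ± 23.5 CPM, and Hacd4 104 ± 33.1, 33.4 ± 12.2 and 49.7 ± 23.8 CPM. The G1 libraries of these last 2 genes overlapped those of the next phase. Pcdh7 had the smallest ratio of G1 to S, with 74.6 ± 11.8 CPM in G1, 64.8 ± 15.5 in S and 38.8 ± 13.1 in G2M, and outside cluster 0 it had 13.2, 13.1 and 12.9 CPM in the 3 phases. Malat1, an abundant nuclear RNA, had 52241, 35218 and 37835 CPM in G1, S and G2M cells of cluster 0, and its part in the members' phase order was not tested.

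Mecom and Hlf themselves averaged 319 ± 30.3 and 191 ± 41.4 CPM in cluster 0 and 96.6 and 82.3 CPM outside it. Cluster 0 cells with a Mecom UMI after thinning (44.6 ± 5.13% of them) were set against those without one, library by library. Mean levels of all 8 genes were higher in the Mecom-positive cells in each of 5 libraries. The ratio averaged 2.15 ± 0.970 for Itsn1, 2.09 ± 0.606 for Samd12, 1.83 ± 0.261 for Prkg1 and 1.71 ± 0.469 for Plxdc2. For Pdzk1ip1, Hacd4, Csgalnact1 and Pcdh7 it averaged 1.64, 1.53, 1.51 and 1.46.

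Itsn1 showed the widest range, with ratios of 1.5, 3.64 and 1.71 in the PBS libraries and 1.31 and 2.61 in AML replicates 1 and 3. Prkg1 was seen in 38.3 ± 5.56% of Mecom-positive and 26.4 ± 7.02% of Mecom-negative cells. Mecom-positive cells held UMIs of 1.70 ± 0.384 of the 8 genes and Mecom-negative cells of 1.15 ± 0.355. With cells scored G1 only, 5 of the 8 genes had ratios above 1 in every library with enough cells.

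**Figure D3:**
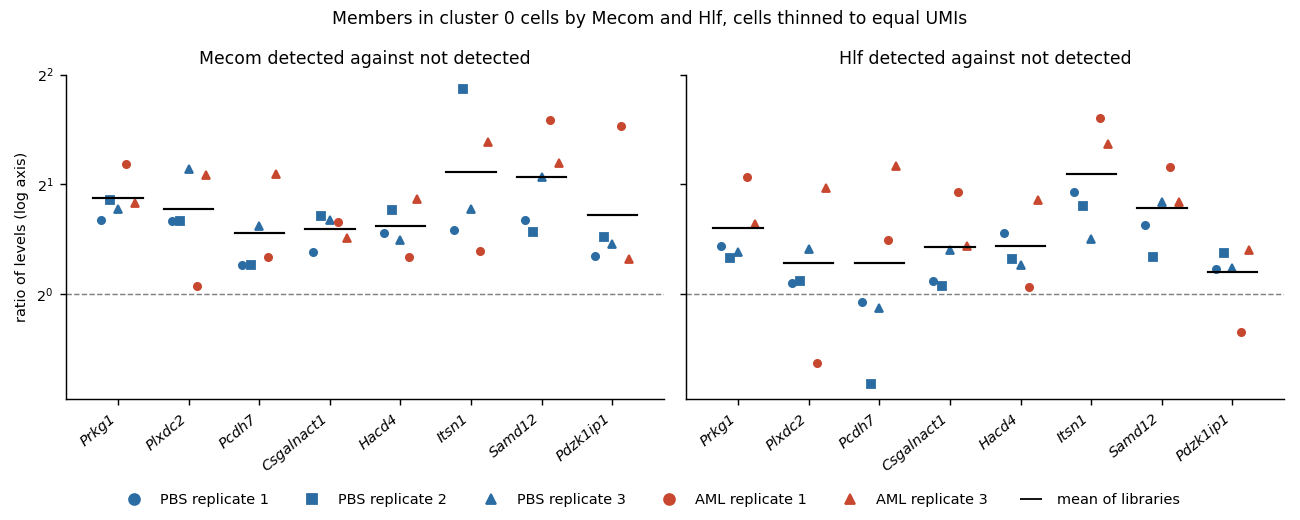
Ratio of each gene's mean level in cluster 0 cells with a UMI of Mecom (or Hlf) to that in cells without one, after thinning to 2000 UMIs per cell. Points are the 5 libraries and 1 means no difference. All points for Mecom lie above 1, and for Hlf those of Plxdc2, Pdzk1ip1 and Pcdh7 fall on both sides.

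The tie to Hlf was looser. The ratio averaged 2.14 ± 0.662 for Itsn1, 1.72 ± 0.358 for Samd12, 1.51 ± 0.342 for Prkg1, 1.35 for Hacd4 and 1.34 for Csgalnact1, each above 1 in 5 of 5 libraries. Plxdc2 averaged 1.21 and Pdzk1ip1 1.15, above 1 in 4 of 5 libraries. Pcdh7 had ratios of 0.946, 0.564 and 0.912 in the PBS libraries and 1.41 and 2.25 in the AML libraries, so it was higher in Hlf-positive cells in 2 of 5. For Mecom itself the ratio between Hlf-positive and Hlf-negative cells was 1.67 ± 0.351. Without thinning 3 of the 8 genes, rather than 5, were above 1 in every library.

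Over 38 sums of library and cluster, each library centred at its own mean, the gene most like the average of the 8 among 9595 genes was Angpt1 (Pearson r = 0.916), which encodes the ligand of the Tie2 receptor. Nceh1 (0.882), Myct1 (0.881) and Plscr4 (0.878) followed, while Mecom stood at rank 40 (0.786) and Hlf at rank 108 (0.734). These sums share libraries and depth, and the values are descriptions.

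The nearest genes split the members further. Prkg1 was nearest to Angpt1 (0.957) and Gse1 (0.901), and Samd12 to Krt18 (0.891) and Angpt1 (0.856). Plxdc2 was nearest to Ltb (0.864), Gata3 (0.835) and Ndfip2 (0.827), of which Ltb and Gata3 are known from lymphocytes. Pcdh7 was nearest to Dach1 (0.842), Sdsl (0.781) and Rab27b (0.769), and Mecom stood at rank 646 for it (0.389).

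Csgalnact1 was nearest to Gng11 (0.839), Muc13 (0.828) and Tie1 (0.818), and Hacd4 to Lrrcc1 (0.882) and Nceh1 (0.877), with Mecom at rank 2061 for Hacd4 (0.576). Pdzk1ip1 was nearest to Plscr4 (0.890), Gse1 (0.873) and Foxn3 (0.870). Itsn1 was nearest to Klf12 (0.819), Inpp1 (0.771) and Chpf2 (0.754), and had Mecom at rank 22 (0.707).

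Other genes of the same pathways were read by level, counting those with at least 5 CPM and each list's own member. In the cGMP list 4 of 5 genes were higher in cluster 0 in every library, among them Gucy1a1, a subunit of the nitric oxide receptor that makes cGMP, at 14.1 against 4.47 CPM. In the chondroitin sulfate list 7 of 12 were higher, with the chain initiator Xylt1 at 31.1 against 17.8 CPM and the sulfotransferase Chst11 at 63.6 against 37.0 CPM. In the endocytosis list 9 of 20 were higher, with the paralog Itsn2 at 68.9 against 43.6 CPM.

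In the fatty acid elongation list 4 of 9 genes were higher and 2 lower, and Hacd1, a paralog of Hacd4, had 56.5 CPM in cluster 0 and 66.6 CPM outside it. Both neighbors of Pdzk1ip1 were higher with it, Tal1 at 36.4 against 14.6 CPM and Stil at 27.2 against 20.4 CPM. Plxdc1, the paralog of Plxdc2, went the other way, with 11.5 against 13.9 CPM. Since 43.7% of the 10207 genes at that level were higher in cluster 0 in every library and 10.8% lower, these counts are descriptions of the lists and not marks of a pathway.

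Long genes as such had higher levels in cluster 0. Other coding genes with at least 20 CPM had a median log2 ratio of cluster 0 to the other cells of -0.08 when their span was under 10 kb (1452 genes), 0.11 from 10 to 50 kb, 0.41 from 50 to 200 kb and 0.59 over 200 kb (282 genes). The lowest ratio of the 8 genes, 1.84, was reached by 2, 1, 0 and 2 other genes in these classes of span. Pdzk1ip1, in the shortest class, had the highest ratio of the 8. Medians of the log2 ratio of AML to PBS over all cells also rose with span, from -0.16 under 10 kb to 0.20 over 200 kb, while the 8 genes had -0.49 to -1.56. What part span had in the levels of the 8 genes was not tested.

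**Figure D4:**
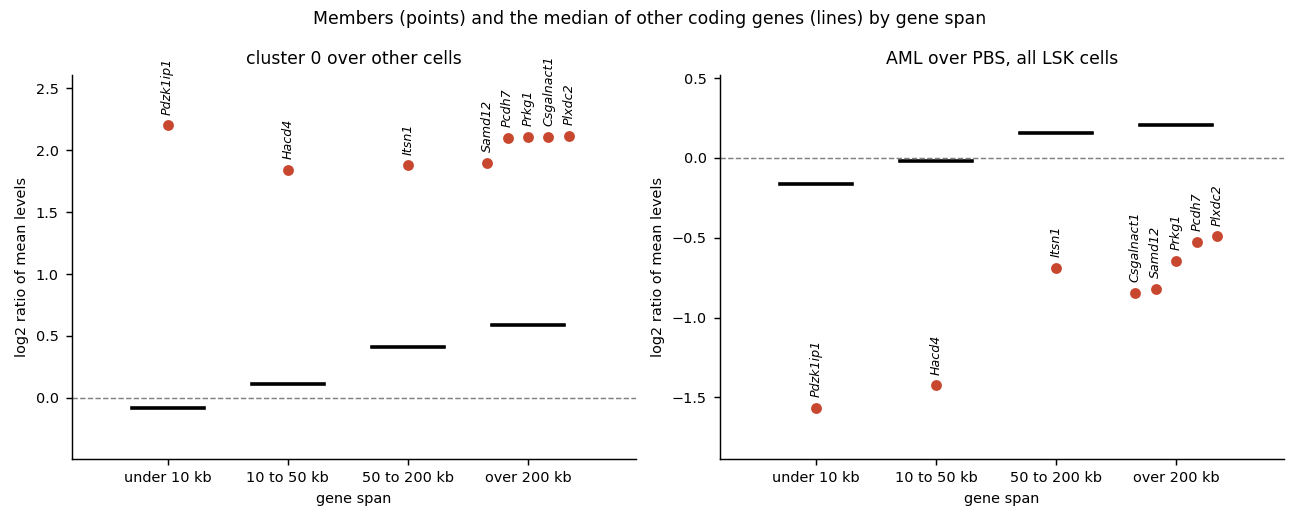
Log2 ratio of mean levels, cluster 0 over the other cells (left) and AML over PBS in all LSK cells (right), by class of gene span, with points for the 8 genes and lines for the medians of other coding genes. The 8 genes lie above the lines on the left, at 1.84 to 2.20, and below them on the right.

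For the question of what AML did to these genes, the UMIs of all LSK cells in a library were added up and the sums tested with edgeR. In such sums, fewer cells of a type and less RNA per cell cannot be told apart. The lowest values of all 8 genes in the PBS libraries stood above the highest in the AML libraries, while 17.4% of 14364 genes showed this pattern. Of the 8, 0 passed an edgeR adjusted p of 0.05, as against 0.16% of genes, 23 in all with 1 of them lower. By unadjusted p under 0.05 all 8 were lower, as were 5.01% of genes, and DESeq2 called 1 of the 8 and 0.55% of genes. Without AML replicate 3 the edgeR test called 2 of the 8 and 2.95% of genes, on the shallow AML replicate 1 alone.

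Pdzk1ip1 had 95.5, 92.1 and 90.9 CPM (TMM scaled) under PBS, against 12.9 and 47.2 CPM in AML replicates 1 and 3, a log2 difference of -1.50 (SE 0.362, edgeR adjusted p = 0.155). Hacd4 had 43.0, 51.4 and 41.8 CPM against 9.81 and 22.1 CPM, a log2 difference of -1.36 (SE 0.286, edgeR adjusted p = 0.0827). In both genes AML replicate 1 had the lowest value, resting on 25 and 19 UMIs, and AML replicate 3 lay between it and the PBS libraries. The size of both differences depended on which AML library was kept, with -0.96 for Pdzk1ip1 and -1.02 for Hacd4 without AML replicate 1, and -2.84 and -2.20 without AML replicate 3.

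Prkg1 had 119, 111 and 115 CPM under PBS, against 69.2 and 75.3 CPM under AML, a log2 difference of -0.67 (SE 0.224, edgeR adjusted p = 0.320). Itsn1 had 27.7, 27.2 and 26.5 CPM against 12.4 and 19.9 CPM, with -0.66 (SE 0.237, edgeR adjusted p = 0.356). For Prkg1 the gap between the groups was wider than the range within either group, while for Itsn1 AML replicate 3 lay about as far from AML replicate 1 as from the PBS libraries.

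Plxdc2 had 34.7, 30.6 and 28.4 CPM against 21.2 and 22.2 CPM, with -0.52 (SE 0.220). Pcdh7 had 36.5, 27.0 and 29.5 CPM against 22.7 and 19.4 CPM, with -0.59 (SE 0.234). For these surface protein genes both AML libraries had similar values, and their edgeR adjusted p values were 0.437 and 0.410. Csgalnact1 had 80.6, 69.3 and 66.4 CPM against 32.5 and 45.8 CPM, with -0.85 (SE 0.238, edgeR adjusted p = 0.225). Samd12 had 61.4, 55.3 and 60.3 CPM against 27.4 and 37.4 CPM, with -0.83 (SE 0.230, edgeR adjusted p = 0.221). The median log2 difference of the 8 was -0.75 and that of all genes tested -0.03. Mecom and Hlf had -0.37 and -0.66, with edgeR adjusted p of 0.590 and 0.333.

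The makeup of the libraries moved with these values in part. HSC class cells were 20.5, 23.9 and 21.9% of the PBS libraries and 3.32 and 13.7% of AML replicates 1 and 3. The summed level of the 15 HSC markers was 671 to 746 CPM in PBS and 485 to 529 CPM in AML, that of 9 megakaryocyte and platelet markers 157 to 206 and 117 to 150 CPM, and that of 9 monocyte and macrophage markers 198 to 207 and 500 to 590 CPM. The 10 erythroid markers summed to 820 to 1254 CPM in PBS and 301 to 628 CPM in AML, the 10 MPP-2 markers to 1020 to 1218 and 560 to 827 CPM, and the 10 MPP-3 markers to 1028 to 1617 and 2210 to 2298 CPM. The neutrophil markers summed to 772 to 1327 CPM in PBS and 1806 to 1809 CPM in AML, the T and NK cell markers to 159 to 217 and 250 to 291 CPM, and the endothelial and stromal markers to 76.5 to 82.2 and 94.4 to 126 CPM. Single genes did not all follow these sums. Of the genes tested, 4 of 9 neutrophil, 1 of 5 T and NK cell and 2 of 4 endothelial and stromal markers had lower fitted values in AML. The B cell markers summed to 1131 to 2073 CPM in PBS and 1494 to 1520 CPM in AML, and the MPP-4 markers to 2381 to 3299 and 2633 to 3066 CPM. These sums overlapped between the groups, as did that of the mast cell and basophil markers. Genes called higher in AML in these lists were Irf8, F13a1, Ly86 and Ms4a6c among the monocyte markers and Ctsg, which is in both the MPP-3 and the neutrophil list. The part of this makeup in the members' differences was not tested beyond this weighting of clusters. With clusters 0 to 4 given the same weights in every library, in proportion to their cells, and clusters 5 to 8 left out, log2 differences ran from -0.23 for Plxdc2 to -1.64 for Pdzk1ip1, and the lowest limma adjusted p was 0.441.

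**Figure D5:**
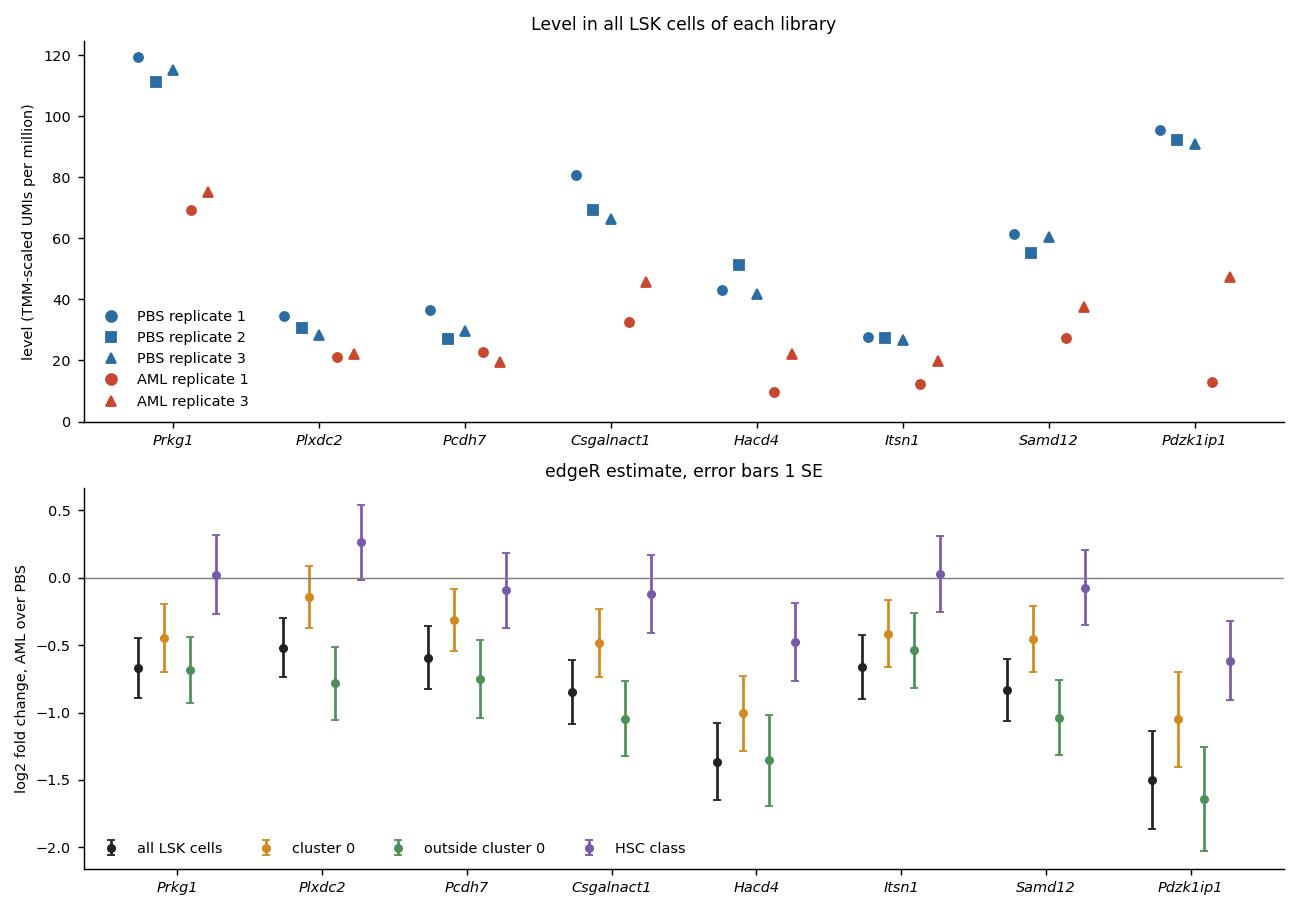
Top, level of each of the 8 genes in all LSK cells of each library, in TMM scaled CPM. Bottom, edgeR log2 difference of AML from PBS with bars of 1 SE, for all LSK cells, cluster 0, the cells outside it and the HSC class. The AML points lie below the PBS points for every gene at the top, and the HSC class estimate at the bottom is the highest of the 4 for every gene.

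Inside cluster 0 the AML libraries lay below the PBS libraries for 7 of the 8 genes, against 16.5% of 12286 genes, and 0 of the 8 passed the edgeR test (0.0407% of genes did). By unadjusted p under 0.05, 2 of the 8 were lower, as were 3.79% of genes. Pdzk1ip1 had 187, 197 and 189 CPM against 33.2 and 135 CPM, with -1.05, and Hacd4 82.6, 95 and 83.1 CPM against 22.6 and 54.0 CPM, with -1.01. Their edgeR adjusted p values were 0.533 and 0.393. Without AML replicate 3, 2 of the 8 and 1.14% of genes were called. The 6 other genes had -0.14 for Plxdc2 and -0.31 to -0.49 for Pcdh7, Itsn1, Prkg1, Samd12 and Csgalnact1. Without AML replicate 1, Pdzk1ip1 had -0.47 and Hacd4 -0.65. In cluster 0 of AML replicate 1, 14.5% of cells (35) were scored G1, against 57.2 to 60.7% in the other libraries. In G1 cells alone Csgalnact1 had -0.024, Samd12 -0.0087, Pcdh7 -0.093, Itsn1 -0.15, Prkg1 -0.19 and Plxdc2 0.21, while Hacd4 had -0.69 and Pdzk1ip1 -0.88. The PBS and AML libraries overlapped there for Csgalnact1, with 202, 188 and 164 CPM in PBS and 263 and 180 CPM in AML, and for Samd12, with 170, 131 and 173 CPM against 189 and 172 CPM. The G1 values of AML replicate 1 rest on 5 UMIs of Hacd4, 8 of Pdzk1ip1, 25 of Csgalnact1 and 18 of Samd12.

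Outside cluster 0 all 8 genes were lower in both AML libraries than in each PBS library, against 15.5% of 13509 genes, and again 0 of the 8 passed (0.163% of genes did). By unadjusted p under 0.05, 7 of the 8 were lower, as were 4.23% of genes. Pdzk1ip1 had 45.9, 45.3 and 43.4 CPM against 2.38 and 19.7 CPM, with -1.64 (edgeR adjusted p = 0.118), the value of AML replicate 1 resting on 3 UMIs. Without AML replicate 3, 4 of the 8 and 2.9% of genes were called. Pdzk1ip1 had -1.19 without AML replicate 1 and -4.24 without AML replicate 3. Over both, Hacd4 had -1.35, Csgalnact1 -1.05, Samd12 -1.04, Plxdc2 -0.78, Pcdh7 -0.75, Prkg1 -0.69 and Itsn1 -0.54. Leaving out 1 library at a time, Hacd4 ran from -2.97 to -1.05 and Csgalnact1 from -1.73 to -0.80. Samd12 ran from -1.80 to -0.79 and Itsn1 from -1.36 to -0.33, while Plxdc2, Pcdh7 and Prkg1 had narrower ranges.

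Within the HSC class the differences were small for most of the genes. Log2 differences were 0.26 for Plxdc2, 0.03 for Itsn1, 0.02 for Prkg1, -0.07 for Samd12, -0.09 for Pcdh7 and -0.12 for Csgalnact1, with a median over the 8 of -0.08. The signs of Samd12, Pcdh7 and Csgalnact1 turned when libraries were scaled by their size alone. Pdzk1ip1 had 299.7, 309 and 297 CPM in PBS and 67.6 and 243 CPM in AML, with -0.62 (edgeR adjusted p = 0.992), and Hacd4 had -0.48. Leaving out 1 library at a time, Pdzk1ip1 ran from -2.19 to -0.31 and Hacd4 from -1.66 to -0.33. These 2 genes were the ones with both AML libraries below the PBS libraries, against 16.3% of 10668 genes, and 0 of the 8 passed (0.178% of genes did). By unadjusted p under 0.05, 1 of the 8, Pdzk1ip1, was lower, as were 2.14% of genes. AML replicate 1 had 23 HSC class cells with 2 to 20 UMIs per gene, so its values say little alone.

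The AML difference inside cluster 0 was set against that outside it in a single model with a term for each library. The ratios of cluster 0 to the other cells in these same libraries, AML included, chose the genes, so the values are given as a description and nothing is read from the calls. Pdzk1ip1 had a difference of differences of 0.73 (SE 0.18) and was the 1 gene of the 8 that edgeR called, beside 0.243% of 13180 genes called in that direction and 0.41% in either. Its fitted difference was thus smaller inside cluster 0 than outside it. DESeq2, limma-voom, thinned cells and no filter gave 0 calls for the 8, as did leaving out any library other than AML replicate 1. Plxdc2 had 0.71, Csgalnact1 0.62 and Samd12 0.59. The rest ran from 0.57 for Pcdh7 through 0.38 for Prkg1 and 0.37 for Hacd4 to 0.15 for Itsn1.

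In the 6 lists built around the members' pathways and the lists of stem cell transcription factors and HSC markers, 0 genes passed the edgeR test over all LSK cells in either direction. The 17 chondroitin sulfate genes tested had a median log2 difference of 0.17, the 20 endocytosis genes 0.11, the 10 elongation genes -0.10 and the 12 cGMP genes -0.39. The 12 stem cell transcription factors had -0.41 and the 15 HSC markers -0.57, beside -0.03 over all genes tested.

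AML replicate 2 had no cells in the table, and a filter of at least 1000 genes and at most 10% mitochondrial UMIs left 106 of its barcodes with 306059 UMIs. In these barcodes Prkg1 had 98.0 CPM (30 UMIs), Pdzk1ip1 29.4 CPM (9 UMIs) and Hacd4 3.27 CPM (1 UMI), too few UMIs to place this library among the others. The sources used here do not state why this library has no cells in the table.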

How the data were processed

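The authors sorted host LSK cells, prepared 10x Chromium libraries and deposited UMI counts per gene and barcode together with a cell table. The submitters' processing notes name Cell Ranger 7.0.1, the mm10 (GRCm38) build, Seurat 4.3.0 and R 4.2.2. The sources used here state neither whether intronic reads were counted nor how doublets were treated. From the table, the deposited labels of cluster, class and phase, the percent of mitochondrial counts and the module scores set by the authors were read, and 11 of 25 columns were not used.

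Raw counts of table cells were summed per library and group of cells. Sums were compared with edgeR 4.0.16 (quasi-likelihood test, TMM scaling, filterByExpr) with Benjamini-Hochberg adjustment over all genes tested and a threshold of 0.05. The scripts ran under R 4.3.3 and Python 3.11.15, and the tests were checked on simulated counts. Shares and ties by cell used cells thinned to 2000 UMIs, leaving out shallower cells. Alternatives were DESeq2 1.42.0, limma 3.58.1 (voom), library size scaling, no filter, thinned cells, a replicate block, an own cell filter, the same weights for clusters 0 to 4 in every library, G1 cells and leaving out each library. Genes named were the 8, Mecom, Hlf, the nearest genes by r (3 for each of the 8 and 5 for their mean) and members of the pathway lists. Some of the nearest genes are not reported here. The genes and lists were chosen with earlier results of these data known. Positions come from GENCODE vM21 (8 of 8 matched) and promoters from RefSeq GRCm38.p6 (5 of 8). Counting intervals cover counting error only.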

Additional observations from a re-analysis of the deposited data

Results flagged for a closer look

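Pdzk1ip1 was picked out because its AML difference inside cluster 0 differed from that outside it by 0.73 on the log2 scale, in a joint model with a term for each library. Leaving out 1 library at a time, this value ran from 0.69 to 1.71. Fitted separately, the 2 parts had log2 differences of -1.05 and -1.64. The ratios of cluster 0 to the other cells in these libraries chose the gene, so this difference is not independent of the choice. The values rest on 22 and 3 UMIs in AML replicate 1, and on 908 and 426 in AML replicate 3.

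All barcodes of AML replicate 2, which entered no comparison over cells of the table, held Prkg1 at 138 CPM and Plxdc2 at 36.7 CPM, above the highest PBS library counted the same way (128 and 34.4 CPM). All barcodes of AML replicate 1 held Prkg1 at 133 CPM, also above that PBS library, while AML replicate 3 had 86.2 CPM of Prkg1 and 22.4 CPM of Plxdc2, below every PBS library. Mecom was likewise higher over all barcodes of AML replicates 1 and 2 (240.2 and 304 CPM against 172 to 193 CPM in PBS). Of the 17055 barcodes of AML replicate 2, 106 passed the cell filter. In the barcodes of AML replicate 2 Hacd4 had 21.4 CPM and Pdzk1ip1 31.0 CPM, below the PBS ranges of 37.9 to 46.9 and 82.3 to 101 CPM. The barcodes left by the cell filter had 98.0 CPM of Prkg1.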

How the results depend on the processing

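Directions of the 8 genes over all LSK cells held in 104 of 104 recomputed values and outside cluster 0 in 88 of 88, while calls did not. These values are refits of largely the same libraries and are not independent of each other. Sums over all barcodes were not among them, and there Prkg1 and Plxdc2 were higher in AML replicate 2 than in each PBS library. Over all LSK cells 23 genes were called, with 79 by DESeq2, 392 without the filter, 9 after thinning, 75 with the own cell filter (6 libraries) and 0 with the same cluster weights in every library. Of the 8 genes 0 were called, with 1 by DESeq2, 4 without the filter and 2 with the own cell filter. In cluster 0 the 5 genes called became 12 (DESeq2), 14 (library size), 104 (no filter), 0 (thinned) and 16 (G1 cells), with 2 of the 8 called without the filter. Outside it the 22 became 58, 63, 294 and 6 in the same order, with 4 of the 8 called without the filter. In the HSC class the 19 became 0 (DESeq2), 0 (voom), 29 (library size), 29 (no filter) and 10 (thinned). For the difference of differences the 54 became 2 (DESeq2), 32 (voom) and 6 (thinned), and the 1 call among the 8 became 0 by DESeq2, voom, no filter and thinning and 2 with library size scaling.

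Leaving out 1 library at a time gave 2 to 419 genes called over all LSK cells and 0 to 2 of the 8, 0 to 142 and 0 to 2 in cluster 0, 11 to 386 and 0 to 4 outside it, 0 to 17 and 0 to 0 in the HSC class, and 30 to 92 and 0 to 2 for the difference of differences. Without AML replicate 3, where the lone AML library is assumed to vary like the PBS group, 2 of the 8 were called over all LSK cells, 2 in cluster 0 and 4 outside it. With the replicate number as a block, 91, 61 and 9 genes were called over all LSK cells, outside cluster 0 and in the HSC class, and 2 of the 8 in each of the first pair (over all LSK cells Hacd4 and Pdzk1ip1). PBS replicate 2 stood alone in its block, and the replicate terms left almost no residual freedom in this fit. Its calls therefore carry little weight. Deviations from the group means had r of -0.0948 and -0.126 in the pairs numbered 1 and 3. The deviations of the AML libraries mirror each other, since only replicates 1 and 3 make up that mean. These values therefore cannot decide whether the numbers pair the samples.

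Signs turned for some log2 differences. In G1 cells of cluster 0 Plxdc2 was 0.21 and Mecom 0.058. In the HSC class library size scaling gave 0.046 for Pcdh7, 0.071 for Csgalnact1 and 0.094 for Samd12, and thinning 0.063 for Pcdh7. That scaling moved the median of all genes from -0.03 to 0.12 in the HSC class and from 0.0089 to 0.11 for the difference of differences. No filter gave -0.0055 for Prkg1 and -0.0056 for Hlf, and the replicate block -0.010 and -0.13. Leaving out libraries, Plxdc2 in cluster 0 ran from -0.49 (without AML replicate 3) to 0.049 (without AML replicate 1). In the HSC class Prkg1 ran from -0.16 to 0.093, Plxdc2 from -0.093 to 0.38, Pcdh7 from -1.33 to 0.015, Samd12 from -0.99 to 0.11 and Hlf from -0.27 to 0.16, each lowest without AML replicate 3. For the difference of differences Prkg1 ran from -0.21 to 0.54 and Pcdh7 from -0.072 to 0.66, lowest without AML replicate 3 and highest without AML replicate 1. Ties above 1 in every library numbered 5 of the 8 for Mecom with G1 cells, and 3 for Hlf both with G1 cells and without thinning. The cause of these changes was not tested. Depth limits AML replicate 1 most.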
